A study of Homo sapiens with 12 samples.

Results

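Galectins are proteins that bind β-galactoside sugars on glycoproteins and glycolipids. The genes described here were 6 rows found by symbol in the TPM tables of both cell lines: LGALS3, LGALS4, LGALS1, LGALS8 and LGALS9, which encode galectins, and LGALS3BP, which encodes a secreted glycoprotein that galectin-3 binds and is not itself a galectin. The tables list 25673 genes in all, of which 25540 stand in both. A further 12 galectin or galectin-like genes were in both tables and are given where they reached measurable levels.

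Galectins are made in the cytosol, act there and in the nucleus, and also leave the cell by a route that does not use a signal peptide. Outside the cell they cross-link glycans into lattices that hold receptors and mucins at the surface. In the intestinal epithelium galectin-3 and galectin-4 are the abundant members. Galectin-3 binds the mucin MUC1 through its sugars, and galectin-4 clusters sulfated glycolipids in the rafts that carry enzymes to the apical membrane. Galectin-8 and galectin-3 also gather on endosomes and lysosomes whose membrane has broken, where the sugars of the inner face are exposed.

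RNA came from LS411N, a human colon cancer line, and from LS411N-BR, its derivative that is resistant to BRAF inhibitors and that was grown in 4 µM of such an inhibitor. Both lines were puromycin resistant and carried a tetracycline-inducible short hairpin RNA against MUC1, so every library came from hairpin-bearing cells. The 4 groups were LS411N-BR with 500 ng/ml doxycycline (LS411N-BR DOX), LS411N-BR with 0.1% DMSO in its place (LS411N-BR no DOX), LS411N DOX and LS411N no DOX, each with 3 libraries, 12 in all. Per the labels, RNA was taken from cells cultured in triplicate. Separate experiments are not named, so p-values measure the spread between these libraries, which may be technical. The knockdown cannot be told apart from doxycycline itself or from the lack of DMSO, nor resistance from the inhibitor in the medium.

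The values were TPM, a level normalised for transcript length and library total. The depth of the libraries is unknown, so no interval for counting error is given, and TPM of whole cultures cannot tell fewer cells of a type from less RNA per cell. MUC1 was at 0.699, 0.388 and 0.440 TPM in LS411N-BR DOX, against 3.69, 3.94 and 4.27 TPM in LS411N-BR no DOX. In LS411N it was at 0.986, 0.814 and 0.967 TPM with DOX, against 4.64, 6.10 and 4.54 TPM without DOX. MUC1 was thus lower in every DOX library. Of the 10 colonic epithelium markers, 9 had at least 1 TPM in every group, with summed levels of 2117 to 4212 TPM. The immune markers summed to at most 0.163 TPM and the endothelial markers to at most 0.0406 TPM in any library, and the B cell gene MS4A1 was at 0 in all. Fibroblast markers summed to 2.85 to 3.80 TPM in LS411N-BR DOX, 1.52 to 1.86 TPM in LS411N-BR no DOX, 0.629 to 0.762 TPM in LS411N DOX and 0.338 to 0.493 TPM in LS411N no DOX, led by LUM in 3 of the groups, with COL1A2 at 0 in LS411N DOX and DCN at 0 in LS411N no DOX. LUM, which encodes the matrix proteoglycan lumican, moved with DOX in LS411N-BR (2.71 ± 0.448 TPM with DOX and 1.31 ± 0.196 TPM without, SD, n = 3 each), and its part in the results was not tested. Replicate 3 of LS411N no DOX stood apart. Its log2 differences from its replicates had SDs of 0.242 and 0.245, while the other 10 pairs of replicates had 0.0915 to 0.124, and short RNA genes took 47.3% of its TPM, against 58.2 and 58.1% in its replicates. This library had 15116 genes above 0 TPM, against 17669 and 17345 in its replicates and at least 16870 in every other library.

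DOX was compared with no DOX within each line by limma on log2(TPM + 1), over genes that reached 1 TPM in 3 or more of a line's 6 libraries, two-sided, with Benjamini-Hochberg adjustment over every gene tested. A gene was called at an adjusted p under 0.05, and fold changes are log2 on that scale with the standard error (SE). For genes at a few TPM, MUC1 among them, the added 1 TPM holds these changes nearer to 0 than the change in TPM itself. Sizes of change are thus not directly comparable between genes of low and high level. LS411N-BR had 11322 tested genes, 56.1% of which were called higher with DOX and 11.1% lower. LS411N had 11281, with 9.75% called higher and 3.43% lower. Without replicate 3 of LS411N no DOX, 5930 of 11186 genes were called higher in LS411N and 707 lower. The shares called in LS411N, which are set beside the gene lists below, thus depended on that library. The median log2 fold change of all genes tested was 0.18 in LS411N-BR and 0.08 in LS411N, and 0.18 in LS411N without that replicate. Short RNA genes took 47.3 to 51.4% of TPM in LS411N-BR DOX and 52.3 to 54.3% in LS411N-BR no DOX, ranges that did not overlap. The changes of the 6 genes and the counts of each gene list are therefore also given after median-of-ratios rescaling, which brings the median change close to 0, and for single genes of the lists the values are as deposited. After it, 3652 genes were higher and 3641 lower in LS411N-BR, and 2124 higher and 1802 lower in LS411N. Higher calls were then 50.1% of all calls in LS411N-BR (83.5% as deposited) and 54.1% in LS411N (74.0% as deposited).

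All 6 genes passed the filter in both lines. In LS411N-BR, LGALS3, LGALS8 and LGALS1 were called higher with DOX and LGALS9 lower, and LGALS4 and LGALS3BP did not pass the test. With 56.1% of all genes called higher, 3 of 6 is no more than this background. In LS411N, LGALS3 was called higher, none of the 6 was called lower, and the other 5 did not pass. LGALS3 stood far above the median of all genes in both lines, and the others lay within 0.37 of it on the log2 scale.

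**Figure D1:**
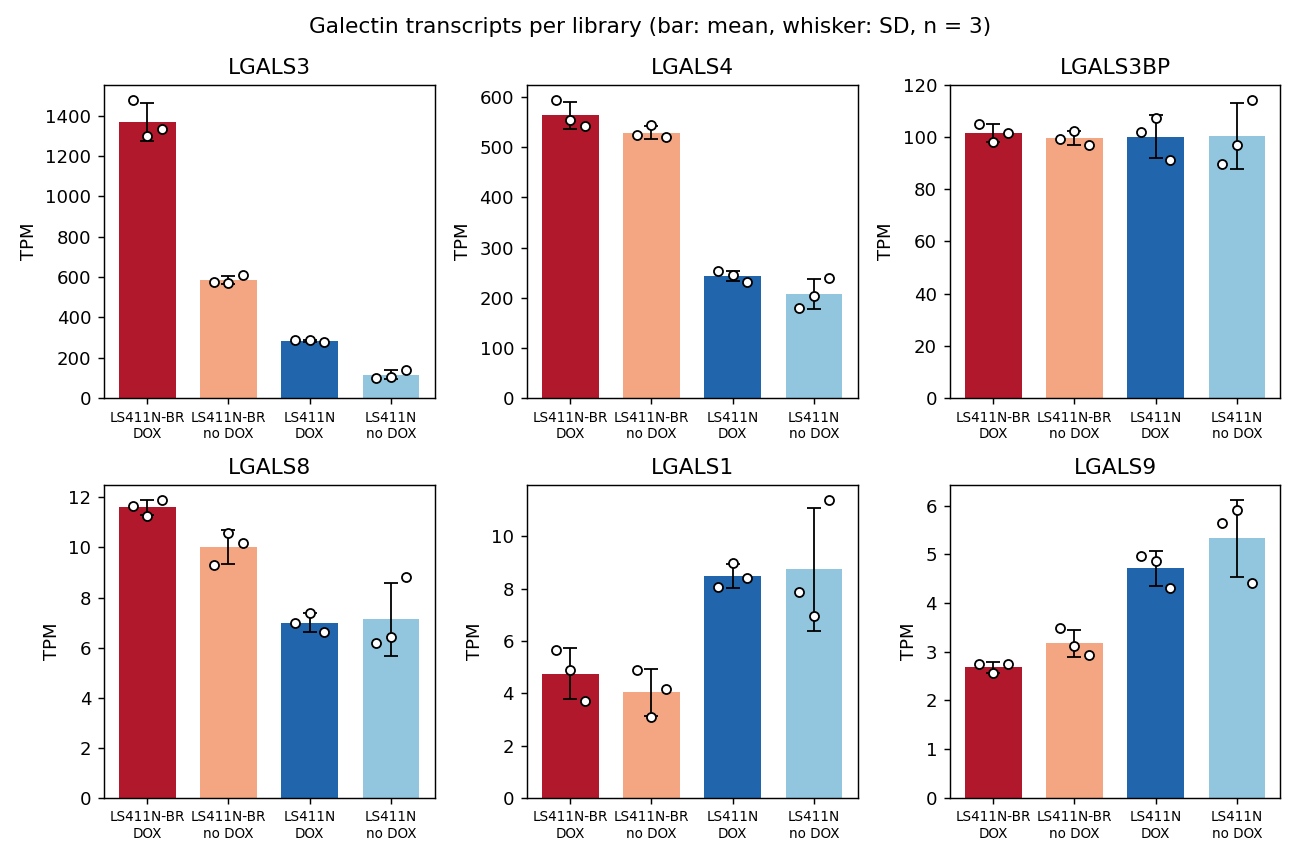
TPM of the 6 genes in each library (circles), with the group mean (bar) and SD (whisker), n = 3 per group, each gene on its own linear axis from 0. LGALS3 is higher with DOX in both lines (1370.0 and 584 TPM in LS411N-BR DOX and no DOX, 283 and 115 TPM in LS411N DOX and no DOX), while the LGALS3BP bars of all groups lie near 100.1 TPM.

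LGALS3 encodes galectin-3, the chimera-type galectin, whose collagen-like tail lets it form oligomers around bound glycans. The gene spans chr14:55124110-55145413 on the plus strand (GENCODE 29, GRCh38). It had 1478, 1301 and 1331 TPM in LS411N-BR DOX, against 575, 569 and 607 TPM in LS411N-BR no DOX. In LS411N the values were 286, 287 and 275 TPM with DOX, against 102, 102 and 141 TPM without. Every DOX library lay above every no DOX library of its line. The means were 1370.0 ± 94.7 TPM in LS411N-BR DOX and 584 ± 20.7 TPM in LS411N-BR no DOX, and 283 ± 6.63 TPM in LS411N DOX and 115 ± 22.8 TPM in LS411N no DOX (SD, n = 3 each).

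The log2 fold change of LGALS3 was 1.23 ± 0.06 SE in LS411N-BR (adjusted p = 5.8e-87) and 1.31 ± 0.15 SE in LS411N (adjusted p = 4.0e-09). In LS411N-BR the variance was taken wholly from the trend over genes, which makes p-values of that line very small. Relative to the median of all genes the change was 1.04 in LS411N-BR, rank 85 of 11322 genes, and 1.23 in LS411N, rank 45 of 11281 genes. After median-of-ratios rescaling it was 1.02 in LS411N-BR and 1.23 in LS411N, called in both. LGALS3 was called higher under all 17 alternative settings in LS411N-BR, with log2 fold changes of 1.02 to 1.26, and under all 18 in LS411N, with 1.23 to 1.46. The highest of these, 1.46, came from leaving out replicate 3 of LS411N no DOX, the library with 141 TPM.

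The effect on LGALS3 did not pass the test of a difference between the lines. The DOX effect in LS411N-BR minus that in LS411N, an interaction in a limma model of the 12 libraries together, was -0.08 ± 0.16 SE (95% interval -0.41 to 0.25, adjusted p = 0.85). For this difference 11674 genes were tested, with 1.39% called higher and 0.728% lower, and none of the 6 genes was among them. LGALS4 was called for the difference in 4 of 23 alternatives and LGALS3 in 1. Without replicate 3 of LS411N no DOX and with median-of-ratios rescaling together, the LGALS3 difference was -0.25 with an adjusted p of 0.020, a call that none of the other 22 settings gave.

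LGALS3 was among the abundant messages of these cells. By mean TPM it ranked 45 among 18894 protein-coding genes in LS411N-BR DOX and 108 in LS411N-BR no DOX, and 213 among 18913 in LS411N DOX and 524 in LS411N no DOX. Its flanking genes, MAPK1IP1L at 53918 bases on one side and DLGAP5 at 2699 bases on the other, were not called in either line. Their log2 fold changes were -0.11 and -0.07 in LS411N-BR and -0.32 and -0.20 in LS411N.

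The promoter sequences of LGALS3 and LGALSL, the galectin-related gene that also rose in both lines (below), are shown with that of LGALS4, which did not pass the test in either. Each is 250 bases before to 50 bases after the RefSeq start site on GRCh38.p14, 5′ to 3′ on the gene's strand, and capitals mark the GC box GGGCGG or its complement. LGALS3 is at chr14:55129002-55129301 (plus strand), LGALSL at chr2:64453912-64454211 (plus strand) and LGALS4 at chr19:38812896-38813195 (minus strand).
LGALS3: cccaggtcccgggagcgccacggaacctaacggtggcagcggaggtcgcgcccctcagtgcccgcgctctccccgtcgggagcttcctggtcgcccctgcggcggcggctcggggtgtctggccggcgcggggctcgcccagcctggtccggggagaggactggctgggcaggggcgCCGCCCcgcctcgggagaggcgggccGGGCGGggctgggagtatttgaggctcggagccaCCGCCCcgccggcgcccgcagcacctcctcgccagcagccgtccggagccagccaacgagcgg
LGALSL: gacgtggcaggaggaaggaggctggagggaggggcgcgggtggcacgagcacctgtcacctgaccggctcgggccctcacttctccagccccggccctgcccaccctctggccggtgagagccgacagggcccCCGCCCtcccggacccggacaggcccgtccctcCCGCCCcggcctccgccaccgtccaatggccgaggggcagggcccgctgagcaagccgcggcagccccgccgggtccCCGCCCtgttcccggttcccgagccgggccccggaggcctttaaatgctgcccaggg
LGALS4: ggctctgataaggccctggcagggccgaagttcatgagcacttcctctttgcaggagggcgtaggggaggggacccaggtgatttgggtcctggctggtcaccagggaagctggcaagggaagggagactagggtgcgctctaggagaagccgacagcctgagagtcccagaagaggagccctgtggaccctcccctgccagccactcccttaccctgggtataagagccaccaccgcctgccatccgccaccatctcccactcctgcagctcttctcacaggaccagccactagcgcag
The LGALS3 window held 3 GC boxes, whose first bases lie 73, 47 and 13 bases before the start site, and 78.3% G and C. The LGALSL window held 3 as well, at 117, 84 and 7 bases before it, and 76.3% G and C. The LGALS4 window held none and 62.7% G and C. Among the other galectin windows searched, 1 of the 3 of LGALS8 held a single GC box, 12 bases before its start site, and LGALS8 was not called in LS411N, nor in either line after median-of-ratios rescaling. The windows of LGALS9B and LGALS9C, copies that were higher with DOX in LS411N-BR (below), held none and 51.7% G and C each. Those of LGALS9, LGALS3BP and LGALS2 held none either. LGALS1, called higher in LS411N-BR, had no promoter window to search. Of 34796 RefSeq promoters of this length, 44.9% held a GC box on either strand, and the median G and C content was 58.7%. That share counts promoters with 1 GC box or more, and the share with 3 was not taken. The 44.9% was also not matched to windows as rich in G and C as those of LGALS3 and LGALSL. These letters are a description of the windows and do not show that a factor binds there. The 3 windows shown were chosen with the DOX results known, and a link between GC boxes and the DOX change was not tested. The other motifs searched on both strands were TATAAA (in 11.6% of promoters), TGANTCA (7.73%), TTTATG (10.6%) and GAAANNGAA (8.11%), and none of them was found in these 3 windows.

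LGALS4 encodes galectin-4, a tandem-repeat galectin with a pair of sugar-binding domains, made mainly in the gut epithelium. It spans chr19:38801671-38813364, minus strand. It had 595, 555 and 542 TPM in LS411N-BR DOX, against 524, 545 and 520.0 TPM in LS411N-BR no DOX. LS411N had 252, 245 and 232 TPM with DOX, against 179.6, 204 and 239 TPM without. The groups overlapped in both lines, where the no DOX library that reached into the DOX range was replicate 2 in LS411N-BR and replicate 3 in LS411N.

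The log2 fold change of LGALS4 was 0.09 ± 0.06 SE in LS411N-BR (95% interval -0.03 to 0.21, adjusted p = 0.19) and 0.24 ± 0.15 SE in LS411N (-0.06 to 0.53, adjusted p = 0.34). The sign in LS411N-BR depended on the scaling. After median-of-ratios rescaling it was -0.12 with an adjusted p of 0.014, a call in the lower direction. In LS411N it was 0.16 after the same rescaling (adjusted p = 0.053), and it was called higher without replicate 3 of LS411N no DOX (0.34, adjusted p = 0.0017) and after rescaling over protein-coding genes (0.21, adjusted p = 0.020). The difference between lines was -0.15 ± 0.14 SE (adjusted p = 0.69) as deposited and was called at -0.28 after median-of-ratios rescaling (adjusted p = 0.016).

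The ratio of LGALS3 to LGALS4 within a library does not depend on how the library was scaled. It was 2.49, 2.34 and 2.46 in LS411N-BR DOX, against 1.10, 1.04 and 1.17 in LS411N-BR no DOX. In LS411N it was 1.13, 1.17 and 1.19 with DOX, against 0.565, 0.500 and 0.592 without. DOX and no DOX libraries did not overlap in either line, and the range of LS411N DOX overlapped that of LS411N-BR no DOX. The ratio was 2.20-fold higher with DOX in LS411N-BR and 2.11-fold higher in LS411N. The exact two-sided permutation test gave p = 0.1 in each line, the smallest that 3 against 3 libraries allow. Leaving out any library gave log2 differences of 1.10 to 1.18 in LS411N-BR and 1.01 to 1.13 in LS411N.

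Summed over the galectin and galectin-like genes, without LGALS3BP, the TPM were 1970.1 ± 123 in LS411N-BR DOX and 1143 ± 13.5 in LS411N-BR no DOX. They were 552 ± 17.3 in LS411N DOX and 349 ± 55.7 in LS411N no DOX (SD, n = 3 each). LGALS3 made up 69.5% ± 0.609 of the sum in LS411N-BR DOX and 51.1% ± 1.42 in LS411N-BR no DOX, and 51.3% ± 0.550 in LS411N DOX and 32.8% ± 1.70 in LS411N no DOX. LGALS4 made up 28.6% ± 0.636 and 46.3% ± 1.31 in LS411N-BR DOX and no DOX, and 44.1% ± 0.570 and 59.5% ± 2.11 in LS411N DOX and no DOX. Only in LS411N no DOX was LGALS4 ahead of LGALS3 in every library. All the other galectins together gave at most 7.63% of the sum in any group mean.

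**Figure D2:**
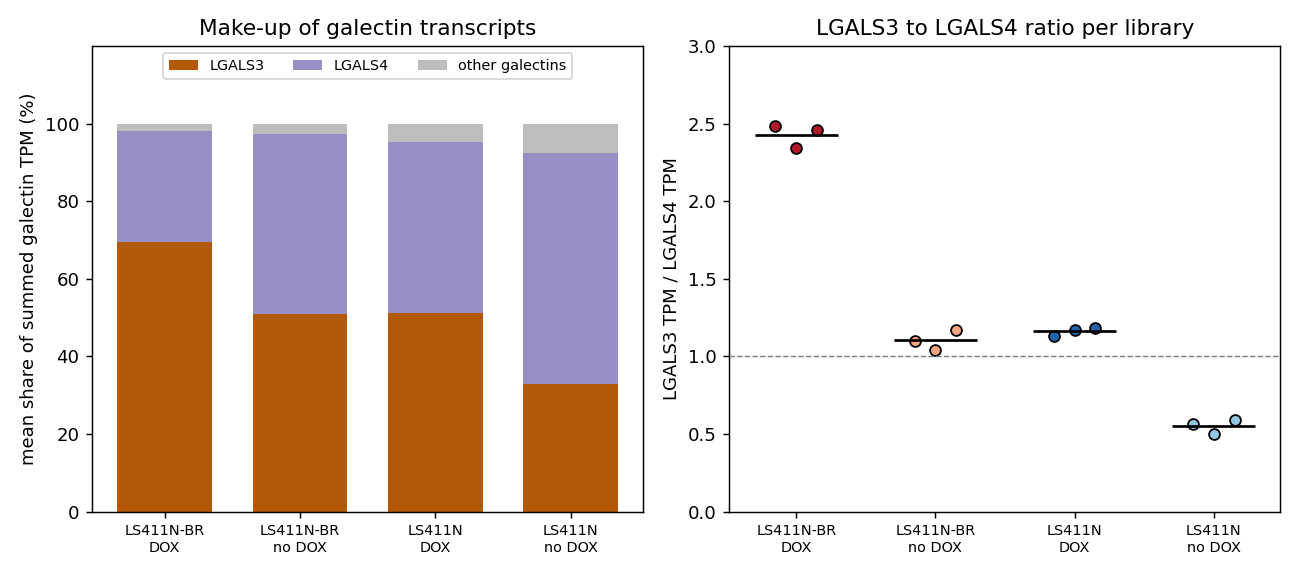
Left, mean share (%) of summed galectin TPM taken by LGALS3, LGALS4 and the other galectins in each group. Right, LGALS3 TPM over LGALS4 TPM in each library (points, n = 3 per group) with the group mean (line). The ratio is above 2.3 in the LS411N-BR DOX libraries and below 0.6 in those of LS411N no DOX.

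LGALS3BP encodes the galectin-3 binding protein, a heavily glycosylated secreted protein with a scavenger receptor cysteine-rich domain. It spans chr17:78971238-78980109, minus strand. It had 105, 98.0 and 102 TPM in LS411N-BR DOX, against 99.3, 102 and 97.1 TPM in LS411N-BR no DOX. LS411N had 102, 107 and 91.1 TPM with DOX, against 89.7, 97.2 and 114 TPM without. The DOX and no DOX libraries overlapped in both lines.

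The log2 fold change of LGALS3BP was 0.03 ± 0.06 SE in LS411N-BR (95% interval -0.09 to 0.15, adjusted p = 0.71) and 0.00 ± 0.15 SE in LS411N (-0.29 to 0.29, adjusted p = 1.0). After median-of-ratios rescaling it was -0.18 in LS411N-BR with an adjusted p of 0.00042, so the direction there rests on the scaling, and -0.07 in LS411N (adjusted p = 0.34). The LGALS3 to LGALS3BP ratio of TPM was 13.5 ± 0.527 in LS411N-BR DOX and 5.87 ± 0.353 in LS411N-BR no DOX, and 2.83 ± 0.174 in LS411N DOX and 1.14 ± 0.0932 in LS411N no DOX (SD, n = 3 each). The LGALS3BP promoter held the interferon-type letters GAAANNGAA, as did that of LGALS9, and 8.11% of all promoters searched held them on either strand. A role of these letters was not tested.

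**Figure D3:**
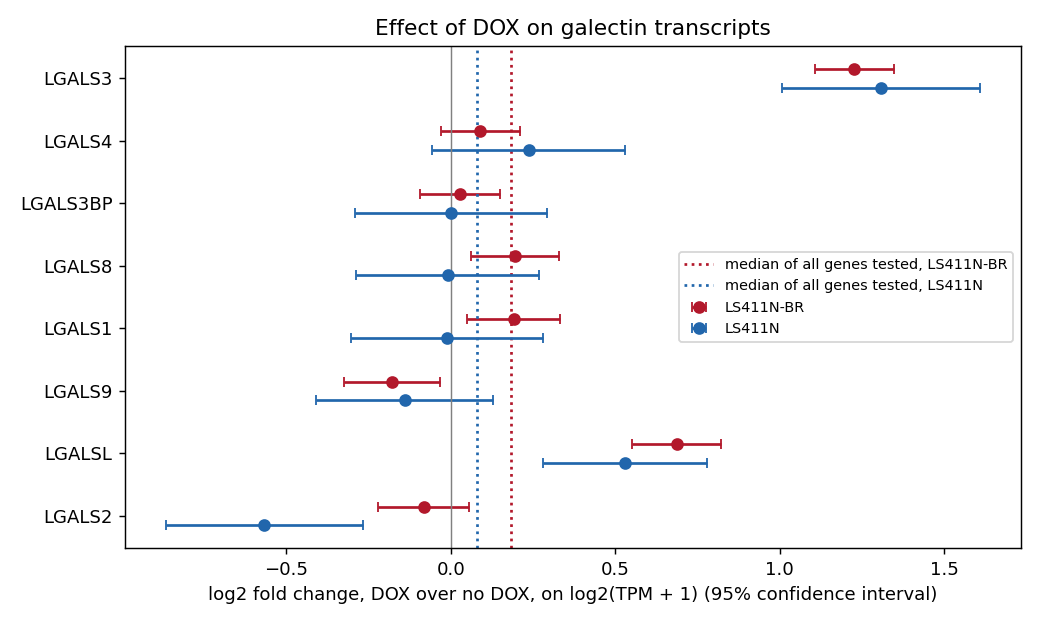
Log2 fold change, DOX over no DOX, on log2(TPM + 1), with its 95% confidence interval (whiskers), for the 6 genes and for LGALSL and LGALS2, in LS411N-BR (red) and LS411N (blue). Dotted lines are the medians of all genes tested, 0.18 in LS411N-BR and 0.08 in LS411N. LGALS3 (1.23 and 1.31) and LGALSL (0.69 and 0.53) lie above both, while the intervals of LGALS4, LGALS8 and LGALS1 cover the median of their line in both.

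LGALS8 encodes galectin-8, a tandem-repeat galectin that marks damaged endosomes and recruits the autophagy receptor CALCOCO2. It spans chr1:236518000-236552981, plus strand. It had 11.7, 11.3 and 11.9 TPM in LS411N-BR DOX, against 9.29, 10.6 and 10.2 TPM in LS411N-BR no DOX. In LS411N it had 7.00, 7.37 and 6.62 TPM with DOX, against 6.17, 6.40 and 8.82 TPM without. The groups were apart in LS411N-BR and overlapped in LS411N.

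LGALS8 rose by 0.20 ± 0.07 SE on the log2 scale in LS411N-BR (adjusted p = 0.0071), which was 0.01 above the median change of all genes. After median-of-ratios rescaling the change was 0.00 (adjusted p = 0.94), and 11 of 17 alternatives gave the call. In LS411N it was -0.01 ± 0.14 SE (95% interval -0.29 to 0.27, adjusted p = 0.98), and -0.07 after rescaling (adjusted p = 0.32). Without replicate 3 of LS411N no DOX it was 0.13, where the median of all genes was 0.18. None of the 18 alternatives in LS411N gave a call. Of the 50-base words in its annotated transcripts, 26.6% also occur on the opposite strand in other genes' transcripts, 19.3% in HEATR1, a ribosome biogenesis gene that overlaps its end. The library kit marks strand, but no source at hand says whether the counting used it. HEATR1 itself rose by 0.28 in LS411N-BR (adjusted p = 5.0e-05), and its share in the LGALS8 value was not tested.

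LGALS9 encodes galectin-9, a tandem-repeat galectin that is induced by interferon and known for its binding to immune receptors. It spans chr17:27629798-27649560, plus strand. It had 2.74, 2.56 and 2.76 TPM in LS411N-BR DOX, against 3.48, 3.11 and 2.94 TPM in LS411N-BR no DOX. LS411N libraries had 4.98, 4.87 and 4.30 TPM with DOX, against 5.65, 5.92 and 4.42 TPM without. The groups were apart in LS411N-BR, and in LS411N only the low library of no DOX, replicate 3, reached into the DOX range.

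LGALS9 fell by 0.18 on the log2 scale in LS411N-BR (-0.18 ± 0.07 SE, adjusted p = 0.025), which was 0.36 below the median of all genes (-0.36). It was called lower in 11 of 16 alternatives, and after median-of-ratios rescaling the change was -0.34 (adjusted p = 0.00093). In LS411N the change was -0.14 ± 0.13 SE (95% interval -0.41 to 0.13, adjusted p = 0.57), and -0.21 after rescaling (adjusted p = 0.33). Without replicate 3 of LS411N no DOX it was -0.25, with an adjusted p of 0.0094. No alternative gave a positive value in either line.

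Reads of LGALS9 can be shared with its copies LGALS9B and LGALS9C, which lie elsewhere on chromosome 17. The first 120 bases of the 3 coding sequences (GENCODE 29, GRCh38) show how alike they are, and capitals mark the positions where the copies are not identical.
LGALS9: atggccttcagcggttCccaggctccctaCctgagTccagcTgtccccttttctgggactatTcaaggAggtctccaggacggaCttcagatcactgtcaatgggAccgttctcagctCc
LGALS9B: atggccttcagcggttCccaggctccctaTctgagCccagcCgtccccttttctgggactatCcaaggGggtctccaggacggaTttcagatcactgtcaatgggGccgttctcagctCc
LGALS9C: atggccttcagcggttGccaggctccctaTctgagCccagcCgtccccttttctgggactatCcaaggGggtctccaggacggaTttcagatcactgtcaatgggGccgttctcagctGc
Over this stretch LGALS9B differed from LGALS9 at 7 bases and LGALS9C at 9. Over the whole coding sequence LGALS9B was 96.3% identical to LGALS9 and LGALS9C 95.9%, and they were 99.5% identical to each other. Of the 50-base words of LGALS9 transcripts, 13.2% occurred in another gene, 6.95% in LGALS9C and 3.62% in LGALS9B. Both copies were below the filter. LGALS9B had 0.537, 0.433 and 0.332 TPM in LS411N-BR DOX, against 0.141, 0.195 and 0.238 TPM in LS411N-BR no DOX. LGALS9C had 0.757, 0.603 and 0.477 TPM in LS411N-BR DOX, against 0.175, 0.165 and 0.171 TPM in LS411N-BR no DOX. In LS411N-BR both copies were thus higher with DOX, while LGALS9 was lower. In LS411N the groups overlapped, with LGALS9B at 0.078 ± 0.0711 TPM with DOX and 0.0409 ± 0.0557 TPM without, and LGALS9C at 0.0777 ± 0.0293 TPM with DOX and 0.213 ± 0.316 TPM without. No source at hand says how reads were split among the copies.

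LGALS1 encodes galectin-1, a prototype galectin that works as a dimer and is best known from stroma and from immune regulation. It spans chr22:37675608-37679806, plus strand. It had 5.66, 4.88 and 3.72 TPM in LS411N-BR DOX, against 4.88, 3.10 and 4.16 TPM in LS411N-BR no DOX. LS411N libraries had 8.07, 8.99 and 8.42 TPM with DOX, against 7.86, 6.95 and 11.4 TPM without. The groups overlapped in both lines.

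The log2 fold change of LGALS1 in LS411N-BR, 0.19 ± 0.07 SE, passed the test (adjusted p = 0.014), although its libraries overlapped. It was 0.01 above the median of all genes, became 0.02 after median-of-ratios rescaling (adjusted p = 0.92), and was called in 6 of 16 alternatives. Without replicate 2 of LS411N-BR no DOX it was 0.05 (adjusted p = 0.61). In LS411N it was -0.01 ± 0.14 SE (95% interval -0.30 to 0.28, adjusted p = 0.97), -0.08 after rescaling (adjusted p = 0.51) and 0.18 without replicate 3 of LS411N no DOX (adjusted p = 0.045). The neighbouring gene PDXP, which encodes a pyridoxal phosphatase and ends 8674 bases away, fell in both lines, with log2 fold changes of -0.998 in LS411N-BR and -0.994 in LS411N. On the other side NOL12, 1867 bases away, was at 0.30 in LS411N-BR (adjusted p = 7.1e-05) and -0.05 in LS411N (adjusted p = 0.87).

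**Figure D4:**
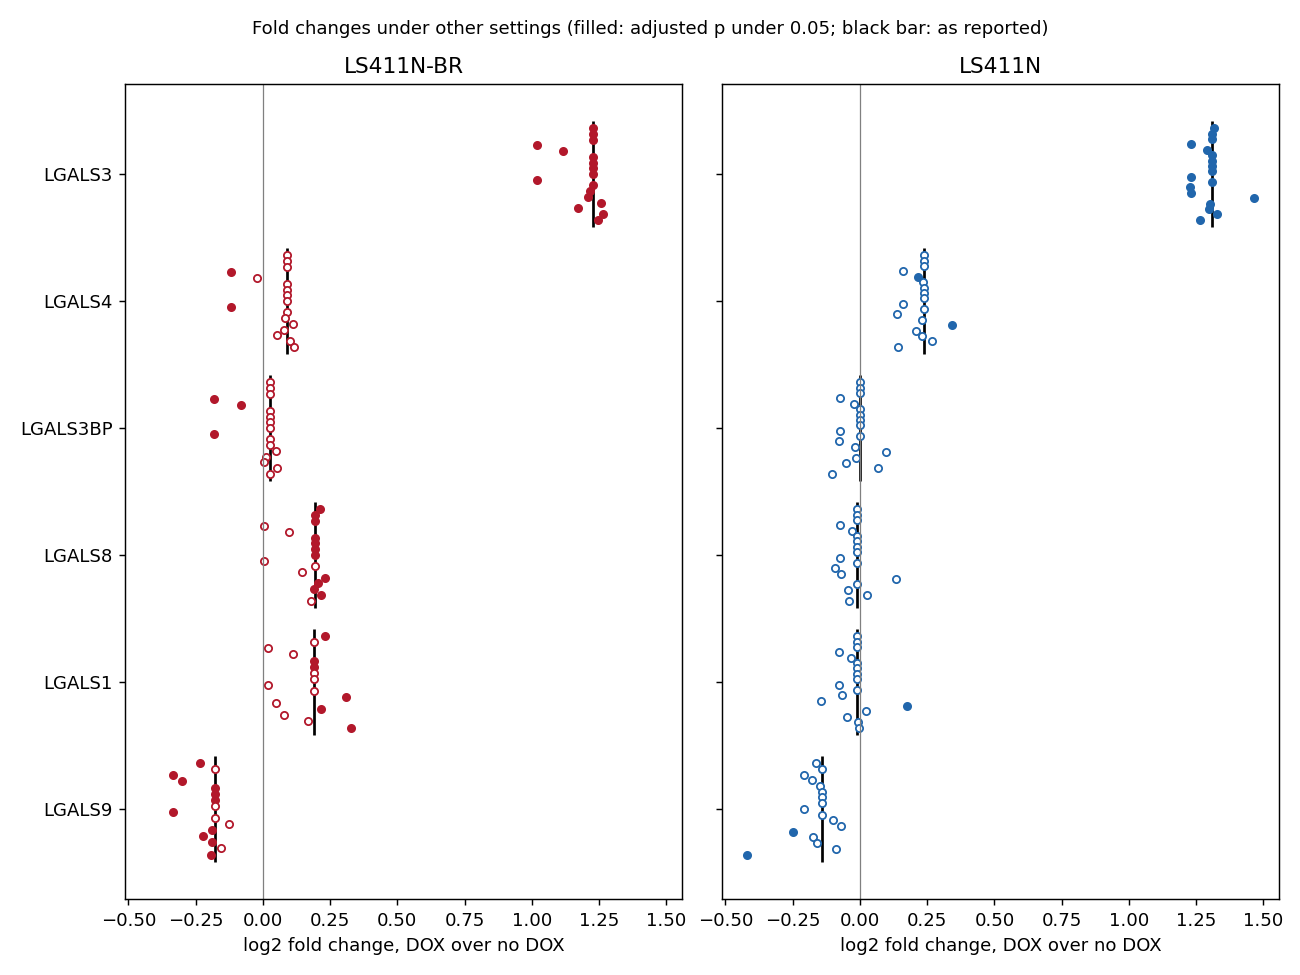
Log2 fold change of each of the 6 genes under every alternative setting (points, filled where the adjusted p was under 0.05) and as reported (black bar), in LS411N-BR (left) and LS411N (right). LGALS3 is filled throughout, at 1.02 to 1.26 in LS411N-BR and 1.23 to 1.46 in LS411N. The points of LGALS4, LGALS3BP, LGALS8 and LGALS1 lie on both sides of 0 in at least 1 line.

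Of the other 12 galectin or galectin-like genes, LGALSL and LGALS2 passed the filter. LGALSL encodes a galectin-related protein whose domain has lost the binding of lactose. It had 10.6, 10.3 and 10.3 TPM in LS411N-BR DOX, against 5.83, 6.23 and 6.20 TPM in LS411N-BR no DOX, and 3.99, 3.99 and 3.80 TPM in LS411N DOX, against 2.37, 2.27 and 2.61 TPM in LS411N no DOX. The groups were far apart in both lines. LGALSL rose by 0.69 ± 0.07 SE in LS411N-BR (adjusted p = 3.7e-22) and by 0.53 ± 0.12 SE in LS411N (adjusted p = 0.0019), and after median-of-ratios rescaling by 0.50 and 0.47. It was thus the second gene of the family, after LGALS3, that was called higher in both lines.

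LGALS2 encodes galectin-2, a prototype galectin of the gastrointestinal tract. It had 7.54, 4.16 and 5.73 TPM in LS411N-BR DOX, against 5.74, 7.62 and 5.05 TPM in LS411N-BR no DOX. In LS411N it had 1.91, 1.04 and 1.40 TPM with DOX, against 2.51, 1.65 and 3.97 TPM without. Libraries of the same group differed widely, and the groups overlapped in both lines. The change did not pass the test in LS411N-BR (-0.08 ± 0.07 SE, adjusted p = 0.30). It passed in LS411N (-0.57 ± 0.15 SE, adjusted p = 0.0059) and was -0.33 without replicate 3 of LS411N no DOX (adjusted p = 0.066). The difference between lines was 0.49 ± 0.27 SE (adjusted p = 0.47). LGALS13, LGALS14 and GRIFIN were listed at 0 in all libraries, and LGALS7, LGALS7B, LGALS12, LGALS16 and CLC never exceeded 0.387 TPM.

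Levels across the lines are set side by side without a test, because each line has its own table and the LS411N table lists 133 genes more. LS411N values were rescaled over the genes in both tables for this. In the order of the groups LGALS3 had 1370.0 ± 94.7 TPM in LS411N-BR DOX, 584 ± 20.7 in LS411N-BR no DOX, 361 ± 4.48 in LS411N DOX and 147 ± 25.8 in LS411N no DOX, and no neighbours in this order overlapped. LGALS4 followed the same order at 564 ± 27.4, 529 ± 13.3, 310.3 ± 4.68 and 265 ± 33.7 TPM, where the LS411N-BR groups overlapped. So LGALS3 and LGALS4 were higher in LS411N-BR than in LS411N with and without DOX.

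LGALS9 had the opposite order, and LGALS1 too was lower in LS411N-BR than in LS411N. LGALS9 had 2.69 ± 0.112 TPM in LS411N-BR DOX and 3.18 ± 0.279 in LS411N-BR no DOX, 6.01 ± 0.309 in LS411N DOX and 6.82 ± 1.16 in LS411N no DOX, and the LS411N groups overlapped. LGALS1 had 4.75 ± 0.974 and 4.05 ± 0.898 TPM in LS411N-BR DOX and no DOX, 10.8 ± 0.715 and 11.1 ± 2.74 TPM in LS411N DOX and no DOX, overlapping within each line but not between the lines. LGALS3BP had 102 ± 3.50 and 99.6 ± 2.60 TPM in LS411N-BR DOX and no DOX, and 128 ± 8.36 and 128 ± 13.7 TPM in LS411N DOX and no DOX. As deposited its LS411N means were 100.1 TPM with DOX and 100.4 TPM without. The gap of LGALS3BP between the lines was thus present only after rescaling. LGALS8 had 11.6 ± 0.309 and 10.0 ± 0.663 TPM in LS411N-BR DOX and no DOX, and 8.93 ± 0.377 and 9.08 ± 1.67 TPM in LS411N DOX and no DOX, where LS411N-BR no DOX overlapped LS411N no DOX and the LS411N groups overlapped. As deposited LS411N-BR no DOX did not overlap LS411N no DOX for LGALS8 (lowest library 9.29 TPM against highest 8.82 TPM).

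The genes whose levels ran most like each of the 6 were taken by Pearson r of log2(TPM + 1) over the 12 libraries, among genes with at least 5 TPM on average. Libraries share line and treatment, so r mostly describes the 4 group levels. For LGALS3 they were KLHL7, an adaptor of a cullin ubiquitin ligase, CD68, a lysosomal membrane glycoprotein, and SH3BGRL3, a small thioredoxin-like protein, all with r = 0.997. CD68 had 70.7 ± 2.22 TPM in LS411N-BR DOX and 34.8 ± 1.30 TPM in LS411N-BR no DOX, and 23.8 ± 1.36 and 9.66 ± 0.612 TPM in LS411N DOX and no DOX after rescaling. CD68 rose by 1.00 ± 0.06 SE in LS411N-BR (adjusted p = 2.8e-54) and by 1.20 ± 0.14 SE in LS411N (adjusted p = 4.1e-09), changes close in size to those of LGALS3. KLHL7 and SH3BGRL3 rose by 0.52 and 0.51 in LS411N-BR and by 0.55 and 0.54 in LS411N.

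For LGALS4 the closest genes were MAOA, monoamine oxidase A (r = 0.992), GPR160, an orphan receptor (r = 0.990), and BHLHE40, a transcriptional repressor (r = 0.988). MAOA had 33.6 ± 1.48 and 25.4 ± 2.80 TPM in LS411N-BR DOX and no DOX, and 8.77 ± 0.328 and 6.20 ± 1.02 TPM in LS411N DOX and no DOX, so it mainly followed the line. For LGALS9 they were MARCKSL1, ATF6B and DMTN (r = 0.991, 0.990 and 0.988), and for LGALS3BP POMGNT1, TIMM13 and P4HB (r = 0.989, 0.985 and 0.984). For LGALS1 they were MRPS23, HAGH and MRTO4 (r = 0.984, 0.979 and 0.978), and for LGALS8 ZDHHC13, GDE1 and CNOT1 (r = 0.981, 0.977 and 0.976).

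Glycoproteins that galectins bind were followed as a list of 27 genes, of which 15 passed the filter in LS411N-BR and 16 in LS411N. Of these 9 rose and 1 fell in LS411N-BR, and 4 rose and 1 fell in LS411N. Over all genes 56.1% were called higher and 11.1% lower in LS411N-BR, and 9.75% and 3.43% in LS411N, so the share that rose in LS411N-BR was near that background. The single gene called lower in each line was MUC1, the target of the hairpin, with log2 fold changes of -1.72 ± 0.08 SE in LS411N-BR (adjusted p = 5.0e-108) and -1.66 ± 0.13 SE in LS411N (adjusted p = 3.5e-14). The median of the list was 0.26 in LS411N-BR and 0.15 in LS411N, against 0.18 and 0.08 over all genes. CEACAM5, the carcinoembryonic antigen, a heavily glycosylated surface protein, had the highest change of the list. It averaged 168 ± 11.6 TPM in LS411N-BR DOX and 69.3 ± 2.20 TPM in LS411N-BR no DOX, and 55.1 ± 3.73 TPM in LS411N DOX and 21.4 ± 3.91 TPM in LS411N no DOX. CEACAM5 rose by 1.27 ± 0.06 SE in LS411N-BR (adjusted p = 1.2e-89) and by 1.34 ± 0.14 SE in LS411N (adjusted p = 1.1e-09).

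LAMP1 and LAMP2, the lysosomal membrane proteins whose poly-N-acetyllactosamine chains bind galectins, rose by 0.34 ± 0.06 SE and 0.37 ± 0.07 SE in LS411N-BR. In LS411N their changes were 0.18 ± 0.15 SE (adjusted p = 0.50) and 0.26 ± 0.14 SE (adjusted p = 0.24), and without replicate 3 of LS411N no DOX 0.33 and 0.34, both called. The other 3 genes called higher in LS411N, named after their values were seen, were the integrin ITGA3 (0.46), fibronectin FN1 (0.59) and the semaphorin co-receptor NRP1 (0.81). HAVCR2, the TIM-3 receptor that galectin-9 binds on T cells, averaged at most 0.0232 TPM in any group. After median-of-ratios rescaling the list had 5 called higher and 6 lower in LS411N-BR, and 7 and 1 in LS411N.

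The enzymes that build galectin ligands, 23 genes of the N-glycan and mucin-type O-glycan pathways, had 21 tested in each line, of which 14 rose and 3 fell in LS411N-BR, and 4 rose and 0 fell in LS411N, with medians of 0.33 and 0.17. Over all genes the medians were 0.18 and 0.08, with 56.1% called higher and 11.1% lower in LS411N-BR and 9.75% and 3.43% in LS411N. After median-of-ratios rescaling there were 11 higher and 7 lower in LS411N-BR and 7 and 3 in LS411N. GCNT3, which makes the core 2 and core 4 branches of mucin O-glycans, had the highest change. It averaged 17.9 ± 0.133 TPM in LS411N-BR DOX and 6.57 ± 0.0993 TPM in LS411N-BR no DOX, and 15.3 ± 1.60 TPM in LS411N DOX and 4.96 ± 1.08 TPM in LS411N no DOX. GCNT3 rose by 1.32 ± 0.07 SE in LS411N-BR (adjusted p = 3.4e-82) and by 1.46 ± 0.14 SE in LS411N (adjusted p = 4.9e-11).

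B3GNT3, which extends core 1 O-glycans with N-acetylglucosamine, rose by 0.70 ± 0.07 SE in LS411N-BR and 0.59 ± 0.14 SE in LS411N. ST3GAL4, an α2,3-sialyltransferase, rose by 0.68 ± 0.07 SE and 0.60 ± 0.13 SE. C1GALT1, the core 1 synthase, rose by 0.44 ± 0.07 SE in LS411N-BR and was at 0.02 ± 0.14 SE in LS411N (adjusted p = 0.96). The 3 genes called lower in LS411N-BR were ST6GAL1, whose α2,6-linked sialic acid blocks galectin binding (-0.42), C1GALT1C1, the chaperone of C1GALT1 (-0.26), and FUT8, which adds core fucose (-0.19). These 3 were named after their values were seen.

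Of 22 genes of the response to damaged endosomes and lysosomes, 22 were tested in LS411N-BR and 21 in LS411N, and 15 rose and 2 fell in LS411N-BR, and 5 rose and 0 fell in LS411N, with medians of 0.30 and 0.13. These stand against medians of 0.18 and 0.08 over all genes, of which 56.1% were called higher and 11.1% lower in LS411N-BR, and 9.75% and 3.43% in LS411N. SQSTM1, the autophagy receptor p62, averaged 233 ± 17.0 TPM in LS411N-BR DOX and 108 ± 2.09 TPM in LS411N-BR no DOX, and 239.8 ± 21.0 TPM in LS411N DOX and 132 ± 15.4 TPM in LS411N no DOX. It rose by 1.10 ± 0.06 SE in LS411N-BR (adjusted p = 1.3e-68) and by 0.86 ± 0.15 SE in LS411N (adjusted p = 2.1e-05). OPTN, another autophagy receptor, rose by 0.86 ± 0.07 SE and 0.78 ± 0.14 SE.

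YOD1, a deubiquitinase of this response, rose by 0.84 ± 0.07 SE in LS411N-BR and 0.45 ± 0.13 SE in LS411N, and ATG16L1, which directs LC3 onto membranes, by 0.62 ± 0.07 SE and 0.49 ± 0.14 SE. The LS411N calls of YOD1 and ATG16L1 were lost in 7 and 5 alternatives, among them without replicate 1 or 2 of LS411N DOX (adjusted p of 0.053 and 0.11 for YOD1, and 0.10 and 0.22 for ATG16L1). CALCOCO2, the receptor that galectin-8 recruits, averaged 27.9 ± 1.54 TPM in LS411N-BR DOX and 28.2 ± 1.76 TPM in LS411N-BR no DOX, and 27.5 ± 2.92 TPM in LS411N DOX and 24.3 ± 2.64 TPM in LS411N no DOX. RRAGC, a GTPase that signals nutrient state at the lysosome, was the fifth gene called higher in LS411N (0.39). The kinase ULK1 (-0.36) and the ESCRT protein TSG101 (-0.17) were called lower in LS411N-BR, and these last 4 were named after their values were seen. After median-of-ratios rescaling there were 11 higher and 6 lower in LS411N-BR and 5 and 2 in LS411N.

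Cargo and glycolipid enzymes of the apical route in which galectin-4 acts formed a list of 18 genes, with 14 tested in LS411N-BR and 11 in LS411N. Of these 9 rose and 2 fell in LS411N-BR (56.1% and 11.1% of all genes), and 5 rose and 2 fell in LS411N (9.75% and 3.43% of all genes). The medians were 0.53 and 0.21, against 0.18 and 0.08 over all genes, and after median-of-ratios rescaling the counts were 8 higher and 4 lower, and 5 and 3. The genes called lower were the same pair in both lines, named after their values were seen: UGCG, which makes glucosylceramide, the precursor of most glycolipids (-0.97 in LS411N-BR and -1.09 in LS411N), and B4GALT6, a lactosylceramide synthase (-0.76 in both). UGCG averaged 11.8 ± 0.922 TPM in LS411N-BR DOX and 24.0 ± 1.37 TPM in LS411N-BR no DOX, and 5.75 ± 0.411 TPM in LS411N DOX and 13.6 ± 3.10 TPM in LS411N no DOX.

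DPP4, a peptidase of the brush border, averaged 118 ± 6.24 TPM in LS411N-BR DOX and 53.6 ± 2.43 TPM in LS411N-BR no DOX, and 35.1 ± 1.60 TPM in LS411N DOX and 15.6 ± 5.17 TPM in LS411N no DOX. DPP4 rose by 1.12 ± 0.06 SE in LS411N-BR (adjusted p = 4.0e-69) and by 1.16 ± 0.16 SE in LS411N (adjusted p = 1.8e-07). ANPEP, aminopeptidase N, averaged 46.9 ± 3.02 TPM in LS411N-BR DOX and 20.1 ± 1.00 TPM in LS411N-BR no DOX, but was below 1 TPM in LS411N. ANXA13, an annexin of apical rafts, rose by 1.21 ± 0.07 SE in LS411N-BR (adjusted p = 4.7e-64) and by 0.40 ± 0.14 SE in LS411N (adjusted p = 0.042, a call lost in 9 alternatives), and the effect on ANXA13 was larger in LS411N-BR by 0.82 ± 0.16 SE (adjusted p = 0.0058).

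Partners and proteases of galectin-3 formed a list of 14 genes with 11 tested in each line, and 7 rose and 1 fell in LS411N-BR, and 2 rose and 0 fell in LS411N, with medians of 0.25 and 0.08. Among all genes 56.1% rose and 11.1% fell in LS411N-BR, and 9.75% rose and 3.43% fell in LS411N, with medians of 0.18 and 0.08, so the list lay near this background in LS411N-BR and its median was that of all genes in LS411N. MMP7, matrilysin, a protease known to cleave galectin-3, averaged 6.21 ± 0.409 TPM in LS411N-BR DOX and 1.64 ± 0.262 TPM in LS411N-BR no DOX, and 6.83 ± 0.808 TPM in LS411N DOX and 2.52 ± 0.929 TPM in LS411N no DOX. MMP7 rose by 1.45 ± 0.07 SE in LS411N-BR (adjusted p = 8.5e-85) and by 1.18 ± 0.14 SE in LS411N (adjusted p = 1.9e-08).

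PDCD6IP, the ESCRT adaptor ALIX, and NUP98, a nuclear pore protein, rose by 0.48 ± 0.06 SE and 0.37 ± 0.06 SE in LS411N-BR. Their changes in LS411N were 0.24 ± 0.15 SE and 0.11 ± 0.15 SE (adjusted p of 0.36 and 0.72), and were called without replicate 3 of LS411N no DOX, at 0.45 and 0.26. β-catenin, CTNNB1, was the gene called lower in LS411N-BR (-0.27), named after its value was seen. After median-of-ratios rescaling there were 5 higher and 4 lower in LS411N-BR and 2 and 3 in LS411N.

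LGALS9 and LGALS3BP are known interferon targets, so 19 interferon response genes were counted as well, with 12 tested in LS411N-BR and 11 in LS411N. Of these 6 rose and 3 fell in LS411N-BR, and 3 rose and 2 fell in LS411N, with medians of 0.16 and 0.01. The medians of all genes were 0.18 and 0.08, and 56.1% of all genes rose and 11.1% fell in LS411N-BR, against which 6 of 12 is no more than the background. In LS411N 9.75% of all genes rose and 3.43% fell. After median-of-ratios rescaling the counts were 4 higher and 5 lower in LS411N-BR and 3 and 4 in LS411N. The list therefore did not move one way. OAS1, an antiviral nucleotide synthetase, averaged 19.7 ± 1.88 TPM in LS411N-BR DOX and 6.96 ± 0.333 TPM in LS411N-BR no DOX, and 14.6 ± 1.17 TPM in LS411N DOX and 4.31 ± 0.833 TPM in LS411N no DOX. It rose by 1.37 ± 0.07 SE in LS411N-BR (adjusted p = 2.5e-89) and by 1.56 ± 0.14 SE in LS411N (adjusted p = 4.1e-12).

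ISG15, a ubiquitin-like modifier, rose by 1.53 ± 0.07 SE in LS411N-BR and 0.73 ± 0.15 SE in LS411N. BST2, the tetherin that holds budding virus at the membrane, fell in both lines (in LS411N not without the filter, adjusted p = 0.069), to 0.664 ± 0.0394 TPM in LS411N-BR DOX, against 1.89 ± 0.413 TPM in LS411N-BR no DOX, and to 0.803 ± 0.115 TPM in LS411N DOX, against 2.35 ± 0.917 TPM in LS411N no DOX. IFITM1, a membrane protein that restricts virus entry, fell to 5.55 ± 0.376 TPM in LS411N-BR DOX, against 10.5 ± 0.496 TPM in LS411N-BR no DOX, and was not tested in LS411N, where its levels were under 1 TPM. MX1 was the third gene called lower in LS411N-BR (-0.21), OAS3 the third called higher in LS411N (0.80) and IFI6 the second called lower there (-0.72), all 3 named after their values were seen. LGALS9 and LGALS3BP themselves had log2 fold changes of -0.18 and 0.03 in LS411N-BR and of -0.14 and 0.00 in LS411N, without the size seen for OAS1 or ISG15.

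Of 10 markers of colonic epithelium 9 were tested, with 8 called higher and 1 lower in LS411N-BR, where 56.1% of all genes were called higher and 11.1% lower, and with 4 higher and 1 lower in LS411N, where 9.75% and 3.43% of all genes were. After median-of-ratios rescaling 5 were higher and 1 lower in each line. The medians were 0.39 in LS411N-BR and 0.35 in LS411N, against 0.18 and 0.08 over all genes. KRT19, a keratin of simple epithelia, rose by 1.34 ± 0.06 SE in LS411N-BR and 1.40 ± 0.15 SE in LS411N, about as much as LGALS3. KRT8 rose by 0.64 ± 0.06 SE and 0.59 ± 0.15 SE, and the adhesion molecule CDH17 by 0.69 ± 0.06 SE and 0.98 ± 0.15 SE. The intestinal surface antigen GPA33 fell in both lines, with log2 fold changes of -0.76 ± 0.06 SE and -0.56 ± 0.14 SE.

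**Figure D5:**
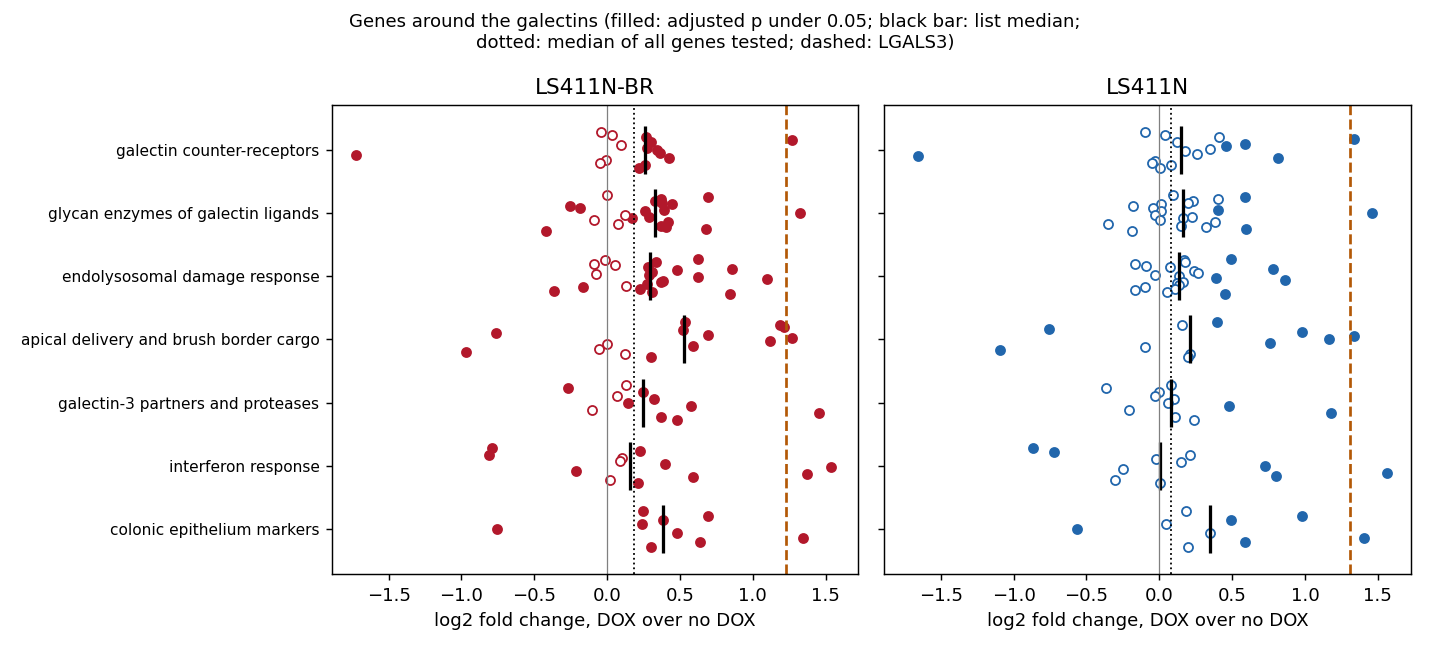
Log2 fold change, DOX over no DOX, on log2(TPM + 1), of the tested genes of 7 lists in LS411N-BR (left) and LS411N (right). Points are genes, filled where the adjusted p was under 0.05, black bars are list medians, the dotted line is the median of all genes tested and the dashed line is LGALS3 (1.23 in LS411N-BR and 1.31 in LS411N). CEACAM5, GCNT3, MMP7, OAS1 and KRT19 lie near or beyond the LGALS3 line in both panels.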

How the data were processed

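RNA of 12 libraries, 3 in each of 4 groups taken from the sample labels, was compared. The deposited tables, 1 per line, hold TPM per gene, and each library sums to 1000000 TPM. Per the labels' protocols libraries were made from total RNA with a stranded mRNA kit. Per the submitters' processing notes STAR, DESeq2 and GRCh38 were used, with no roles given, so the program that made the TPM is unknown. Depth per library is unknown, and precision is given only by the spread of the 3 libraries of a group.

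TPM were taken as log2(TPM + 1) and tested with limma's trended moderation (limma 3.58.1, R 4.3.3), over genes with 1 TPM or more in 3 libraries, with Benjamini-Hochberg adjustment over all genes. Ratios were tested by exact permutation (SciPy 1.17.1). Fits were tested on simulated data. Positions came from GENCODE 29, sequences from RefSeq (promoters, GRCh38.p14) and from GRCh38 with GENCODE 29 (coding sequences, aligned with Biopython 1.88). Alternatives were the pseudocount, filters, trend, moderation, spread, rescalings, the replicate block and leaving out libraries. Replicate numbers were not used to pair samples. The 6 genes, the gene lists and the tests were chosen with earlier results of these data known. By rule, each list names up to 4 called genes with the smallest adjusted p in either line, and genes outside the rule are said to be named after their values were seen. The genes beside or overlapping a galectin gene, CALCOCO2 and HAVCR2 also stand outside it. Levels across lines were not tested. Results of some genes on the lists are not reported here.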

Additional observations from a re-analysis of the deposited data

Results flagged for a closer look

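As deposited, none of the 6 genes passed the test of a difference between the lines in its DOX effect, and LGALS4 was called in 4 of 23 alternatives and LGALS3 in 1. The test, an interaction in limma with Benjamini-Hochberg adjustment, was passed by 6 genes of the lists around them. Of these, 2 had passed the filter on low values in both lines. The annexin ANXA13 changed more in LS411N-BR by 0.82 ± 0.16 SE on the log2 scale (adjusted p = 0.0058), and this call was lost without the filter (adjusted p = 0.075). The interferon-induced modifier ISG15 changed more in LS411N-BR by 0.81 ± 0.19 SE (adjusted p = 0.026), a call lost with a pseudocount of 0.1 TPM (adjusted p = 0.090) and without the filter (adjusted p = 0.19).

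The other 4 passed the filter in one line only. In the line where they were under 1 TPM, a change on the log2(TPM + 1) scale is held near 0 by the low level, so these values do not show that the fold change differed. The apical aminopeptidase ANPEP had a difference of 0.93 ± 0.12 SE (adjusted p = 7.3e-05), with group means of 46.9 ± 3.02 TPM in LS411N-BR DOX, 20.1 ± 1.00 TPM in LS411N-BR no DOX, 0.889 ± 0.0431 TPM in LS411N DOX and 0.585 ± 0.0785 TPM in LS411N no DOX. For IFITM1 it was -0.92 ± 0.23 SE (adjusted p = 0.035), lost with a pseudocount of 0.1 TPM (adjusted p = 0.40) and without the filter (adjusted p = 0.26), with 0.606 ± 0.264 TPM in LS411N DOX and 0.530 ± 0.501 TPM in LS411N no DOX. For fibronectin FN1 it was -0.54 ± 0.14 SE (adjusted p = 0.046), with 0.0780 ± 0.0277 TPM in LS411N-BR DOX and 0.0407 ± 0.00476 TPM in LS411N-BR no DOX. For IFI6 it was 0.64 ± 0.15 SE (adjusted p = 0.021), with 0.449 ± 0.220 TPM in LS411N-BR DOX and 0.528 ± 0.0869 TPM in LS411N-BR no DOX.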

How the results depend on the processing

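LGALS3 was called higher in both lines under every alternative run. LGALSL was called higher wherever it was tested, which in LS411N leaves out the 5 TPM filter. Its highest value there was 3.99 TPM. Settings added after seeing the data were the rescalings over protein-coding genes and over genes in both tables, the ratio without each library, and median-of-ratios rescaling with replicate 3 of LS411N no DOX left out. The cause of the changes below was not tested. In LS411N-BR, LGALS3BP turned to -0.18 with median-of-ratios rescaling, with and without the replicate block, and to -0.082 with protein-coding rescaling, and LGALS4 turned to -0.12 with and without the block. LGALS1 kept 0.19 but lost its call without the filter, with robust moderation, with the replicate block (adjusted p = 0.051) and with the spread of all 12 libraries, and was 0.019 with median-of-ratios rescaling (with and without the block), 0.11 with protein-coding rescaling and 0.048 to 0.33 without 1 library. LGALS9 stayed at -0.18 but was not called without the filter, with the replicate block (adjusted p = 0.064) or with the pooled spread, and ranged from -0.22 to -0.13 without 1 library. LGALS8 was 0.0036 with median-of-ratios rescaling (with and without the block), 0.10 with protein-coding rescaling, 0.20 and not called with the pooled spread, and 0.15 to 0.23 without 1 library.

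In LS411N, LGALS4 was 0.21 and called with protein-coding rescaling and 0.14 to 0.34 without 1 library, LGALS1 was -0.15 to 0.18, and LGALS9 was -0.25 to -0.072 and -0.42 with both rescaling and replicate 3 of no DOX left out. The difference between lines for LGALS4 was -0.28 with median-of-ratios rescaling (with and without the block), -0.24 with protein-coding rescaling and -0.27 with replicate 3 left out as well, where that of LGALS3 was -0.25. Genes called for the DOX effect in LS411N, 1487 as reported, were 806 without the filter, 3926 with median-of-ratios rescaling, 4080 with protein-coding rescaling, 900 with the replicate block, 4004 with block and rescaling, 2692 with the pooled spread, 5259 with rescaling and without replicate 3, and 624 to 6637 without 1 library. The 6637 came from leaving out replicate 3 of LS411N no DOX. Genes called for the difference of the DOX effect between lines, 247 as reported, were 109 with a pseudocount of 0.1 TPM, 140 with a 5 TPM filter, 1188 with median-of-ratios rescaling, 997 with protein-coding rescaling, 999 with block and rescaling, 2361 with rescaling and without replicate 3, and 125 to 1058 without 1 library. For the DOX effect in LS411N-BR 6578 to 7703 were called without 1 library, and 7603 as reported. A 5 TPM filter left LGALS1 and LGALS9 with no value in LS411N-BR, and LGALS9 with none in LS411N or for the difference. LGALSL too had none in LS411N with that filter.

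As deposited, mean TPM in LS411N DOX and no DOX were 283 and 115 for LGALS3, 243 and 208 for LGALS4, 100.1 and 100.4 for LGALS3BP, 7.00 and 7.13 for LGALS8, 4.72 and 5.33 for LGALS9, and 8.49 in LS411N DOX for LGALS1. Same-numbered libraries deviated together with r of 0.02, 0.00 and 0.01 in LS411N-BR and 0.03, 0.01 and 0.17 in LS411N, so the numbers are not shown to pair samples. The limits are 3 libraries per group, unknown depth, the short RNA share and replicate 3 of LS411N no DOX.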
